A study of Caenorhabditis elegans with 9 samples.

Results

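Messenger RNA of *C. elegans* *hrde-2(qe20)* mutants was set against that of wild-type animals, using every library that carries either genotype in its title. This took in 6 of the 9 libraries of the series, 3 of *hrde-2(qe20)* and 3 of wild-type. The mutants were labelled as strain FD53, whose label names the same gene as *hrde-2* and *enri-3* on chromosome V (the headers of their count files carry a number that is not that of FD53, so the strain rests on the label), and the wild-type animals were of strain N2. The remaining 3 libraries, of *hrde-1(tm1200)* mutants of strain USC661, entered the fit so that all genotypes shared an estimate of the spread. All animals were 1-day-old adults grown at 20 °C, and RNA came from lysates of whole worms, which hold a germline with oocytes and stored sperm, embryos in the uterus, intestine, muscle, epidermis and neurons. Each genotype was represented by 1 strain, so that a change cannot be told apart from any other difference between the strains.

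HRDE-1 is an Argonaute protein of germline nuclei. It is guided by secondary small RNAs, made by RNA-dependent RNA polymerases on target transcripts, to nascent transcripts of matching sequence, where it recruits histone methylation and represses transcription in a way that can be inherited. Germ granules, perinuclear bodies of the germline, are where many Argonaute proteins meet their small RNAs. HRDE-2 carries the same name because its loss also impairs heritable RNAi. The comparison asked which mRNAs differ in level when HRDE-2 is mutated.

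The counts per library summed to between 9920341 and 11151616 in *hrde-2* and between 5801326 and 11020580 in wild-type, and 12141 of 31106 genes had enough counts to be tested. Levels are given as CPM, the count of a gene relative to the scaled total of its library. Wild-type replicate 1 stood apart from the other wild-type libraries, with r = 0.935 and r = 0.937 against them over log2 CPM values, where wild-type replicates 2 and 3 had r = 0.979 and the *hrde-2* libraries between 0.971 and 0.977. It held more mRNA of sperm and muscle genes than the other wild-type libraries and less of oocyte genes (values below).

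The *hrde-2* gene itself was measured at 14.3, 15.5 and 19.3 CPM in mutant animals, against 22.9, 52.1 and 42.3 CPM in wild-type. Every mutant library was thus below every wild-type library, and the mRNA was still well above the floor of 3 counts. This was a log2 fold change of -1.25 with an SE of 0.27 (adjusted p = 0.0104 in the quasi-likelihood test of edgeR, which gave all adjusted p below), and adjusted p reached 0.0645 with mutant replicate 1 left out and 0.0612 with mutant replicate 2 left out. The mRNA of *hrde-1* stood at 445, 443 and 436 CPM in *hrde-2* and at 200.4, 355 and 301 CPM in wild-type, which missed the threshold of 0.05 (log2 fold change 0.63 with an SE of 0.22, adjusted p = 0.0791).

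Of the 12141 genes tested, 919 were higher in *hrde-2* at an adjusted p under 0.05, which is 7.57%, and 516 were lower, which is 4.25%. The genes that rose were mostly nearly silent in wild-type: 471 of the 919 averaged under 1 CPM there, and the median of their mean levels was 6.64 CPM in *hrde-2* and 0.947 CPM in wild-type. The genes that fell were well expressed in wild-type, with a median of 20.7 CPM in *hrde-2* and 39.1 CPM in wild-type. Only 1 of the 516 averaged under 1 CPM in wild-type, but a falling gene at that level could hardly pass the filter on low counts. The steps also differed in size, since the median log2 fold change was 2.71 among genes that rose and -0.98 among genes that fell (2.70 with the 11 risers at 0 in wild-type set at a bound of 3 counts per library), and 703 genes rose but 50 fell at least 4-fold. The libraries of the genotypes did not overlap in all 919 genes that rose and in 508 of the 516 that fell, which was also so in 32.2% of all genes tested.

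Split by wild-type level, 471 of 1085 genes under 1 CPM were higher (43.4%), against 26 of 1365 genes at 100 CPM or more (1.90%). The share called lower ran the other way, from 1.99% of the genes between 1 and 10 CPM and 5.68% of those between 10 and 100 CPM to 8.13% of those at 100 CPM or more. Small changes pass the threshold more easily at high counts, and this trend cannot be told apart from that. Genes under 1 CPM in wild-type had to be seen in *hrde-2* or *hrde-1* libraries to be tested at all. The share of risers and the near lack of fallers among them thus only describe the genes that passed the filter. The plot of fold changes against level shows a cloud of genes between log2 fold changes of 2 and 4 at low levels and a shallower rim of abundant genes below 0.

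**Figure D1:**
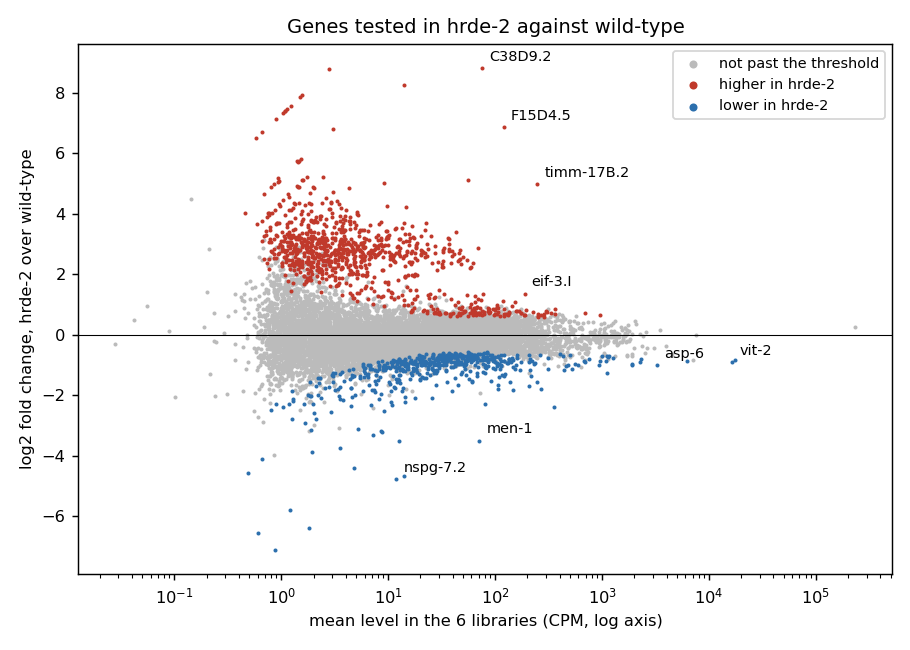
Log2 fold change of *hrde-2* over wild-type (vertical axis) against the mean level in the 6 libraries in CPM (horizontal log axis), 1 point per gene tested, with the 919 higher genes in red, the 516 lower genes in blue and the others in grey. Most red points lie at low levels near a log2 fold change of 2.71, and the blue points lie further right with a median of -0.98.

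The number of falling genes depended on the libraries and the scaling. It was 108 to 247 without any 1 of the *hrde-2* libraries or wild-type replicate 3, 1115 without wild-type replicate 1, 220 in a fit of only the 6 libraries, and 323 with library size alone as scaling, where 74.7% of the called genes were higher instead of 64.0%. Rising genes numbered 509 when *hrde-2* replicate 2 was left out, but 1682 when wild-type replicate 1 was. In the fit without wild-type replicate 1, 14.8% of autosomal genes tested were higher and 8.94% lower. Counts for gene lists in that fit, given below, are to be set against these shares.

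The largest rises outside the sperm gene families were in genes with hardly any mRNA in wild-type adults. C38D9.2 (chromosome V, 17567513 to 17571603) reached 158, 129.7 and 162 CPM in mutant libraries of *hrde-2*, against 0.393, 0.343 and 0.179 CPM in wild-type, which rests on 3, 4 and 1 wild-type counts (log2 fold change 8.81 with an SE of 0.31, adjusted p = 7.73e-09). F15D4.5 (chromosome II, 13245348 to 13247774) had 237, 199.5 and 277 CPM in *hrde-2* and 1.57, 2.23 and 2.33 CPM in wild-type, and F15D4.6, its downstream neighbour on the same strand, had 15.9, 16.1 and 21.2 CPM in *hrde-2* and 0.262, 0.857 and 0.358 CPM in wild-type. These neighbours rose by 6.85 (SE 0.27) and 5.0 (SE 0.40) on the log2 scale, each with all 3 mutant libraries far above all 3 wild-type libraries. F28F8.7 (chromosome V, 15578984 to 15590617), with a gene on its opposite strand from which counting without strand cannot separate it, stood at 103, 104 and 114 CPM in *hrde-2* and 2.75, 3.17 and 3.4 CPM in wild-type.

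The most abundant of the strong risers was timm-17B.2 (chromosome IV, 8396493 to 8397950), which codes for a paralog of a subunit of the translocase that imports proteins across the inner mitochondrial membrane. Its mRNA was at 481, 406 and 546 CPM in *hrde-2*, against 15.1, 14.4 and 15.6 CPM in wild-type, a log2 fold change of 4.99 (its SE was 0.23, adjusted p = 4.27e-08). The spread within each genotype was small beside this gap. In *hrde-1* the gene was at 331, 415 and 448 CPM, and the difference between the mutants was 0.26 on the log2 scale (adjusted p = 0.50).

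Several genes were at or near 0 in wild-type, so that their size of change is known only within counting limits. F07B7.1 (chromosome V, 8830183 to 8831441) had 0 counts in each wild-type library and 3.21, 8.99 and 4.71 CPM in *hrde-2*, at least 14.2-fold higher when 3 counts are set as the floor in each wild-type library. F55B11.6 (chromosome IV, 14416489 to 14417201) had 2 wild-type counts in all and 22.9, 31.4 and 29.2 CPM in *hrde-2*, a ratio of 351 (95% interval 97 to 2910.0). F59A6.4 had 3 wild-type counts in all and 3.32, 6.72 and 4.3 CPM in *hrde-2*, a ratio of 40.5 (95% interval 13.6 to 199). The intervals are exact binomial intervals on the summed counts and cover counting error only. Of the others with the largest rises, Y37D8A.5 had 7.49, 10.3 and 7.11 CPM in *hrde-2* and 0.393, 0.343 and 0 CPM in wild-type, and T08B6.9 had 5.03, 8.66 and 3.8 CPM in *hrde-2* and 0.525, 0 and 0.179 CPM in wild-type. The acyl-CoA synthetase gene acs-15, whose family activates fatty acids, had 5.88, 5.55 and 3.64 CPM in *hrde-2* and 0.393, 0.0857 and 0.179 CPM in wild-type. Adjusted p of these genes ran from 1.79e-06 to 0.00246. A call and no overlap between the groups were conditions for choosing them, so neither is a result.

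Levels in *hrde-1* differed among these genes. For C38D9.2 at 111, 136 and 147 CPM and F15D4.6 at 11.9, 17 and 17.6 CPM in *hrde-1* the difference between the mutants missed the threshold (adjusted p = 0.644 and 0.779). F07B7.1 at 0.452, 0.239 and 0.533 CPM in *hrde-1* was higher in *hrde-2* than in *hrde-1* by 3.73 on the log2 scale (adjusted p = 0.00749), and F55B11.6 at 9.86, 11.1 and 14.6 CPM in *hrde-1* by 1.23 (adjusted p = 0.0305). Of all genes tested, 5.67% differed between the mutants at this threshold. Both mutants were set against the same wild-type libraries, so that their changes from wild-type are not independent of each other.

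**Figure D2:**
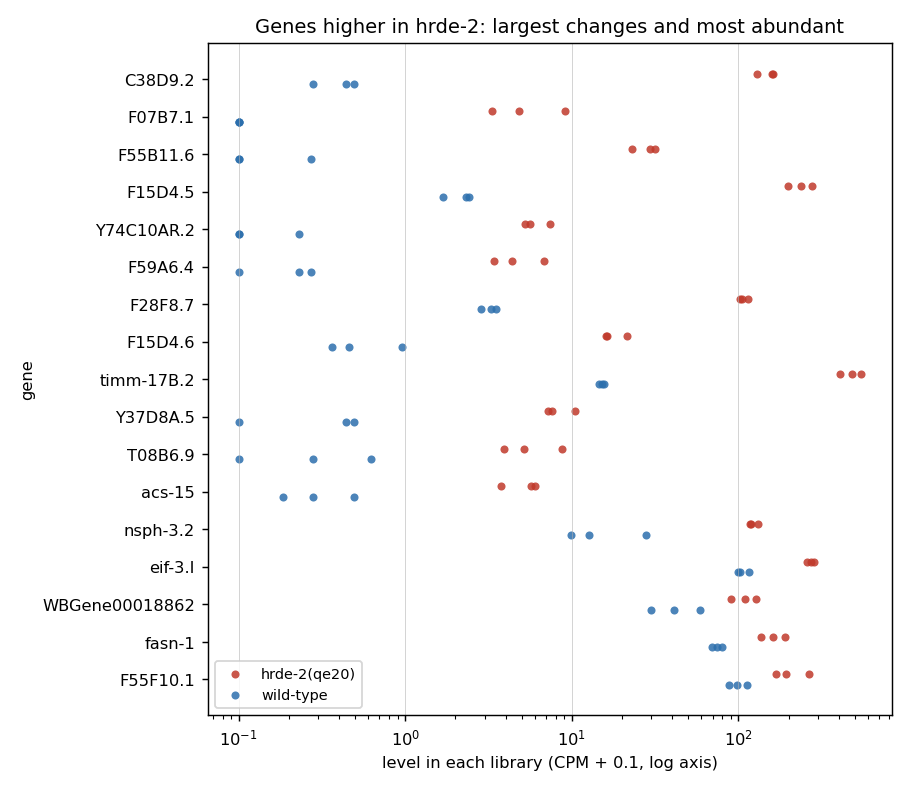
Level of each gene in each library, as CPM + 0.1 on a log axis, for the 12 largest rises and the 8 most abundant genes that rose at least 2-fold outside the sperm lists, with *hrde-2* libraries in red above wild-type libraries in blue. The groups do not overlap for any gene shown, which was a condition for choosing the 12 largest rises. The most abundant is timm-17B.2, at 478 CPM in *hrde-2* on average and 15 CPM in wild-type.

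Among abundant mRNAs the rises were smaller. The gene eif-3.I, for a subunit of translation initiation factor eIF3, stood at 283, 256 and 273 CPM in *hrde-2* and 115, 102 and 98.7 CPM in wild-type (log2 fold change 1.36 with an SE of 0.18, adjusted p = 0.000569). The fatty acid synthase gene fasn-1 stood at 161, 189 and 137 CPM in *hrde-2* and 79.5, 69.1 and 74.3 CPM in wild-type (log2 fold change 1.13 with an SE of 0.19, adjusted p = 0.00202). F55F10.1 had 266, 192 and 167 CPM in *hrde-2* and 113, 87.2 and 97.8 CPM in wild-type, and its call was lost without *hrde-2* replicate 1 or wild-type replicate 3 (adjusted p = 0.0537 and 0.0516). The pseudogene WBGene00018862 had 90.6, 109 and 128 CPM in *hrde-2* and 29.6, 58.5 and 41 CPM in wild-type, and nsph-3.2, of a family of short nematode-specific peptides, had 118, 131 and 117 CPM in *hrde-2* and 27.8, 9.77 and 12.5 CPM in wild-type.

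The gene eif-3.I lay in a stretch of chromosome I in which 5 consecutive tested genes, from 2472066 to 2506259, were all higher in *hrde-2*. These names other than eif-3.I and Y74C10AR.2 were chosen after their values were seen. Upstream of eif-3.I, on the other strand, abtm-1, a gene for a mitochondrial ABC transporter, had 54.1, 49 and 29.6 CPM in *hrde-2* and 21.5, 12 and 14 CPM in wild-type. Inside abtm-1 and on its opposite strand, Y74C10AR.2 had 5.14, 7.31 and 5.54 CPM in *hrde-2* and 1 count in all 3 wild-type libraries together, a ratio of 151 (95% interval 26.7 to 5980.0). Since the files were counted without strand and reads that overlap 2 genes were not counted, the values of these overlapping genes are uncertain. Downstream, ddx-10, for a DEAD-box RNA helicase, had 98, 111.5 and 126 CPM in *hrde-2* and 53.8, 66.8 and 61.4 CPM in wild-type, and Y23H5B.5 had 82.1, 103 and 101 CPM in *hrde-2* and 39.9, 44.9 and 39.8 CPM in wild-type.

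Apart from Y74C10AR.2, the genes of the stretch rose by 0.88 to 1.48 on the log2 scale, with the call of abtm-1 lost without *hrde-2* replicate 2 (adjusted p = 0.0601), and the nearest tested genes on either side, Y74C10AL.2 and dmsr-2, had log2 fold changes of -0.52 (adjusted p = 0.0812) and -0.09 (adjusted p = 0.938). All 5 genes also differed between the mutants, with higher levels in *hrde-2* than in *hrde-1* (adjusted p from 0.00300 to 0.0435). In *hrde-1* Y23H5B.5 had a log2 fold change of 0.27 against wild-type, eif-3.I of 0.13 and ddx-10 of -0.00017.

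Spermatogenesis in hermaphrodites takes place before adulthood, after which the germline makes oocytes, so adults carry stored sperm and little sperm mRNA. The sperm gene families rose in *hrde-2*, with 26 of 27 tested major sperm protein genes higher and 0 lower (median log2 fold change 2.6, against -0.10 over all genes tested), and 36 of 46 tested genes of other sperm families higher and 0 lower (median 2.58). None was lower by DESeq2 or at an unadjusted p under 0.05 in edgeR either. Together they accounted for 62 of the 919 rising genes, and 857 lay outside. These lists hold named gene families only, with 73 tested members, so a gene outside them can still be a sperm gene. The paper identifies the group of genes raised in this mutant as spermatogenic. How many of the 857 belong to its wider set of spermatogenic genes was not tested. The same limit applies to every gene described here as outside the sperm lists or families. Summed over the major sperm protein genes, mRNA was at 1126, 1195 and 1073 CPM in *hrde-2* and 366, 103 and 86.5 CPM in wild-type. Wild-type replicate 1 thus held several times as much as the other wild-type libraries but less than any *hrde-2* library. Without that library 28 genes passed the filter on low counts, all 28 were called higher, and the median was 3.67. In bulk RNA of whole worms, more cells of a type and more RNA per cell cannot be told apart. Where members of these families share sequence, reads that map to several places were not counted. Values of single genes and sums are uncertain there.

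Some genes of a list drawn up for germline sex determination were also among those that rose. Of 33 tested genes for germline sex determination, 5 were higher (15.2%, against 7.57% of all genes) and 0 lower (median log2 fold change 0.39, 1 lower at an unadjusted p under 0.05 and 0 by DESeq2), and of these fog-3 had the smallest adjusted p. The product of fog-3 is required in the germline for sperm fate. Its mRNA was at 4.81, 2.1 and 3.3 CPM in *hrde-2*, against 0.131, 0.0857 and 0 CPM in wild-type, where 2 counts were found in all, a ratio of 41 (95% interval 11.1 to 343). The other members were chosen after their values were seen. They were cpb-1, cpb-2 and cpb-3, for RNA-binding proteins of the CPEB family, and laf-1, for a DEAD-box helicase. Whether these cpb genes act in the decision between sperm and oocyte was not tested, and the share of the list rests in part on them.

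Their levels differed widely. The mRNA of cpb-2 was at 3.64, 7.06 and 2.64 CPM in *hrde-2* and 0.918, 0.0857 and 0.358 CPM in wild-type, whereas laf-1 was at 175, 163 and 161 CPM in *hrde-2* and 109, 99.5 and 94.4 CPM in wild-type. The calls of cpb-1 (log2 fold change 0.72, adjusted p = 0.0294) and cpb-3 (log2 fold change 0.69, adjusted p = 0.0337) were each lost when any of several libraries was left out, with 2 to 11 genes of the list called over the fits without 1 library. The low end came without *hrde-2* replicate 2 or wild-type replicate 3, and the high end without wild-type replicate 1, when 2 were also lower.

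Among the Argonaute genes, 6 of 19 tested were higher (31.6%, against 7.57% of all genes) and 1 was lower (5.26%, against 4.25%). The strongest rises were in the Argonaute genes of the male germline, alg-3 and alg-4, whose proteins act on spermatogenic transcripts. The mRNA of alg-3 was at 15.8, 19.3 and 12.9 CPM in *hrde-2*, against 2.23, 0.686 and 0.717 CPM in wild-type (log2 fold change 3.73 with an SE of 0.42, adjusted p = 0.000287), and that of alg-4 at 17.3, 21.7 and 14.9 CPM in *hrde-2* and 3.8, 0.943 and 0.896 CPM in wild-type (log2 fold change 3.25 with an SE of 0.47, adjusted p = 0.000926). The other names apart from wago-4 were chosen after their values were seen. In both of these genes wild-type replicate 1 was the highest wild-type library, as it was for the sperm families, and both were higher in *hrde-2* than in *hrde-1* (adjusted p = 0.0395 and 0.0406).

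The remaining Argonaute genes moved less. The Piwi gene prg-1, with an overlapping gene on its opposite strand, had 222, 195 and 238 CPM in *hrde-2* and 96.9, 152 and 147 CPM in wild-type (log2 fold change 0.73, adjusted p = 0.0464), csr-1, for the Argonaute of germline-expressed genes, had 370.4, 363 and 302 CPM in *hrde-2* and 227, 232 and 236 CPM in wild-type (log2 fold change 0.58, adjusted p = 0.0426), and ppw-2 and wago-10 had log2 fold changes of 0.65 (adjusted p = 0.0407) and 2.55 (adjusted p = 0.0319). These 4 calls were close to the threshold. The Argonaute that fell was wago-4, which acts in the inheritance of silencing from germ granules, at 72.5, 50.4 and 61.9 CPM in *hrde-2* and 94.8, 110.3 and 114 CPM in wild-type (log2 fold change -0.79 with an SE of 0.19, adjusted p = 0.0169), and it was lower in *hrde-2* than in *hrde-1* as well (adjusted p = 0.0109). Over the fits without 1 library 2 to 7 Argonaute genes were called higher, with 2 when *hrde-2* replicate 2 or 3 or wild-type replicate 3 was left out.

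Of 66 other genes of small RNA pathways, 6 were higher, which is 9.09% against 7.57% of all genes, and hrde-2 was the only one lower. The member with the smallest adjusted p was rde-11, for a factor that promotes the degradation of targeted mRNAs, at 34, 29.2 and 39 CPM in *hrde-2* and 8.39, 19.6 and 12.4 CPM in wild-type (log2 fold change 1.33 with an SE of 0.28, adjusted p = 0.00786). The other 5, chosen after their values were seen, code for proteins of germ granules or small RNA biogenesis. The mRNA of simr-1 stood at 88.3, 83.5 and 87.8 CPM in *hrde-2* and 37.9, 54.9 and 48.2 CPM in wild-type, that of the helicase gene znfx-1 at 93.2, 107 and 65 CPM in *hrde-2* and 49.7, 47.7 and 42.5 CPM in wild-type, and that of the Vasa-like gene glh-1 at 424, 455 and 531 CPM in *hrde-2* and 239, 298 and 243 CPM in wild-type. The log2 fold changes of these, glh-4 and pid-5 lay between 0.67 and 0.92, and of the 6 only glh-1 passed the test of a difference between the mutants (adjusted p = 0.0321 for glh-1 and from 0.182 to 0.74 for the others). Summed over the list, the level was 4158, 4460.0 and 4734 CPM in *hrde-2* and 2425, 4372 and 3831 CPM in wild-type, so that wild-type replicate 1 was lowest and replicate 2 lay within the range of the mutant. Without *hrde-2* replicate 2 or wild-type replicate 3, 2 genes of the list were called higher, and without wild-type replicate 1, 7 were higher and 7 lower.

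Genes of oxidative phosphorylation were called higher at a rate near that of all genes. Of 50 tested, 4 were higher (8.0%, against 7.57%) and 1 lower (2.0%, against 4.25%), and the median log2 fold change was -0.27 (0.0078 without wild-type replicate 1). Those with the largest changes were cyc-2.2, 1 of the genes for cytochrome c, at 11.7, 20.3 and 13.8 CPM in *hrde-2* and 1.44, 1.8 and 2.51 CPM in wild-type, and the ADP/ATP translocase genes ant-1.3 and ant-1.4 (chosen after their values were seen), of which ant-1.3 was at 6.74, 12 and 8.1 CPM in *hrde-2* and 1.44, 0.257 and 0.358 CPM in wild-type. The mRNA of ant-1.4 was at 2.67, 4.54 and 3.88 CPM in *hrde-2* and 0.131, 0.514 and 0 CPM in wild-type. The remaining riser, sdha-2, for a subunit of succinate dehydrogenase and likewise chosen after its values were seen, was at 109.9, 126 and 145 CPM in *hrde-2* and 59.7, 93.2 and 84 CPM in wild-type, and its call (adjusted p = 0.0486) was lost in 6 of 14 alternatives. Counts of cyc-2.2 may include reads of a gene on the other strand. The member that fell was ucr-2.1, for a subunit of complex III, at 113, 93.8 and 88.9 CPM in *hrde-2* and 223, 128 and 161 CPM in wild-type (log2 fold change -0.79, adjusted p = 0.0354), a call also lost in 6 of 14 alternatives, among them the fit without wild-type replicate 1.

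Of 95 genes of lipid metabolism, 10 were higher (10.5%, against 7.57% of all genes) and 8 lower (8.42%, against 4.25%), and the median was -0.31. The risers included fasn-1 (values above), acdh-8, an acyl-CoA dehydrogenase gene, at 21.7, 29.7 and 22.1 CPM in *hrde-2* and 4.85, 2.4 and 1.43 CPM in wild-type, and elo-4 (chosen after its values were seen), for a fatty acid elongase, at 18.4, 13.7 and 13.3 CPM in *hrde-2* and 2.36, 0.772 and 0.358 CPM in wild-type. The faller with the smallest adjusted p was acdh-9, at 82.7, 71.3 and 85.4 CPM in *hrde-2* and 178, 117 and 139 CPM in wild-type (log2 fold change -0.86 with an SE of 0.20, adjusted p = 0.016). Wild-type replicate 1 was the highest library of the list in summed level, at 13900.0 CPM, where the other 5 libraries lay between 8725 and 9970.4 CPM. The 8 falls were reduced to 0 without *hrde-2* replicate 1 and to 2 without *hrde-2* replicate 2 or 3 or wild-type replicate 3, and were 12 without wild-type replicate 1.

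C-type lectins were called in both directions. This family codes for secreted or membrane proteins with a carbohydrate-binding domain. Of 85 tested genes, 8 rose (9.41%, against 7.57% of all genes) and 7 fell (8.24%, against 4.25%). The risers, with clec-73 at 11, 14.9 and 9.5 CPM in *hrde-2* and 1.84, 0.60 and 0.896 CPM in wild-type, had log2 fold changes of 2.63 (clec-175) to 4.88 (clec-119), and the fallers, with clec-66 at 36, 27.8 and 26.8 CPM in *hrde-2* and 71.9, 61.8 and 116 CPM in wild-type, of -2.51 (clec-4) to -0.70 (clec-50). Of these names clec-119, clec-175 and clec-50 were chosen after their values were seen. Without 1 library 1 to 11 lectin genes fell, with 1 when *hrde-2* replicate 1 or 2 was left out and 11 without wild-type replicate 2. Of 35 nematode-specific peptide genes outside the sperm lists, 7 rose (20.0%, against 7.57% of all genes) and 4 fell (11.4%, against 4.25%). Of the risers nspa-5 had the smallest adjusted p (log2 fold change 3.21 with an SE of 0.34, adjusted p = 0.000242). Without 1 library 1 to 6 fell, with 1 when *hrde-2* replicate 1 or 2 was left out. Among 78 cytosolic ribosomal protein genes edgeR, with all libraries, called rpl-42 alone, at 3.0, 2.86 and 2.56 CPM in *hrde-2* and 1 wild-type count in all, a ratio of 69.4 (95% interval 12.1 to 2770.0), while the median of the family was -0.08. DESeq2 called 1 of the family lower, and in edgeR 4 were lower at an unadjusted p under 0.05.

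Several of the genes that fell most were lower in *hrde-2* than in *hrde-1* as well. The malic enzyme gene men-1 (chromosome II, 14226377 to 14234120), whose product converts malate to pyruvate and yields NADPH, stood at 10.8, 12.8 and 11.1 CPM in *hrde-2* and 148, 143 and 134 CPM in *hrde-1* mutants, against 168, 102 and 122 CPM in wild-type. All 3 *hrde-2* libraries were thus close together and far below the other 6 libraries. Its log2 fold change was -3.50 (SE 0.23, adjusted p = 2.43e-06) against wild-type and -3.61 (adjusted p = 1.02e-05) against *hrde-1*, and the call against wild-type held in all 14 alternatives.

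F47E1.4 (chromosome X, 9062834 to 9066591) had 1.5, 1.6 and 1.98 CPM in *hrde-2* and 18.5, 8.6 and 7.46 CPM in *hrde-1* mutants, against 20.3, 12 and 15.4 CPM in wild-type, and scb-1 (chromosome V, 11118721 to 11119730), named for the sensitivity to a chemotherapeutic agent that its variation confers and overlapped by a gene on the other strand, had 3.96, 3.28 and 3.55 CPM in *hrde-2* and 16, 21.1 and 16.7 CPM in wild-type. Both were lower in *hrde-2* than in *hrde-1* (adjusted p = 0.0030 and 0.00164). The nematode-specific peptide gene nspg-7.2 (chromosome III, 3256730 to 3258395) moved in opposite directions in the mutants. It had 0.963, 0.924 and 0.578 CPM in *hrde-2* and 105, 198 and 92.1 CPM in *hrde-1*, against 25.4, 7.89 and 35.3 CPM in wild-type, with log2 fold changes of -4.77 (SE 0.58, adjusted p = 0.000382) in *hrde-2* and 2.55 (adjusted p = 0.0105) in *hrde-1*. C27A7.8 (chromosome V, 12153076 to 12154264), likewise with a gene on its opposite strand, had 0.535, 0.252 and 0.496 CPM in *hrde-2* and 7.34, 10.6 and 9.49 CPM in wild-type.

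Other large falls rested on wild-type libraries that differed widely among themselves. The claudin-like gene clc-19 had 1.28, 1.6 and 3.06 CPM in *hrde-2* and 5.38, 14.6 and 50.3 CPM in wild-type, the glucuronosyltransferase gene ugt-18 had 2.14, 2.18 and 0.826 CPM in *hrde-2* and 8.92, 13.5 and 24.2 CPM in wild-type, and clec-4 had 3.1, 2.35 and 2.64 CPM in *hrde-2* and 4.72, 11.2 and 30.8 CPM in wild-type. The tetraspanin gene tsp-1 had 1.5, 2.27 and 0.578 CPM in *hrde-2* and 2.62, 6.34 and 13.4 CPM in wild-type. The groups did not overlap in any of these 4, which was a condition for choosing the largest falls. In each the highest wild-type library was the third and the lowest the first. Their log2 fold changes were -3.52 (SE 0.72), -3.17 (SE 0.71), -2.51 (SE 0.59) and -2.34 (SE 0.66). Each lost the call in at least 1 fit without a library (highest adjusted p = 0.0506, 0.0547, 0.0839 and 0.138).

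**Figure D3:**
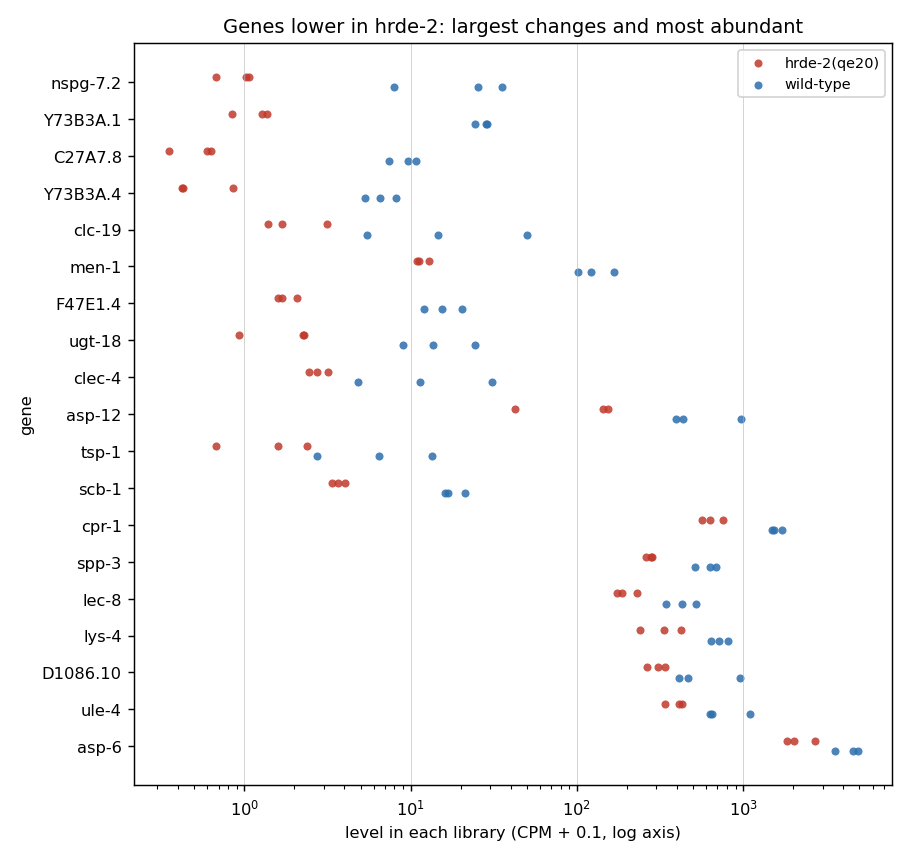
Level of each gene in each library, as CPM + 0.1 on a log axis, for the 12 largest falls and the 8 most abundant genes that fell at least 2-fold, with *hrde-2* libraries in red above wild-type libraries in blue. The groups do not overlap for any gene shown, which was a condition for choosing the 12 largest falls. The wild-type libraries of clc-19 spread from 5.38 to 50.3 CPM while those of Y73B3A.1 lie between 24.3 and 28.8 CPM.

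Protease genes were among the abundant genes that fell. Of 21 tested aspartyl and cysteine protease genes, 10 were lower (47.6%, against 4.25% of all genes) and 1 was higher. Among all genes at 100 CPM or more in wild-type, 8.13% were lower. The median log2 fold change of the protease genes was -0.70. Aspartyl protease genes code for cathepsin D-like enzymes. The mRNA of asp-6 was at 2686, 1843 and 2007 CPM in *hrde-2* and 4594, 3586 and 4898 CPM in wild-type, a log2 fold change of -1.0 (its SE was 0.22, adjusted p = 0.00967). That of asp-1, chosen after its values were seen as were asp-3, asp-5, cpr-5 and cpr-9, was at 5248, 3969.9 and 4126 CPM in *hrde-2* and 8942, 6488 and 8896 CPM in wild-type, and that of asp-3 at 1799, 1342 and 1570.1 CPM in *hrde-2* and 3228, 2329.5 and 3302 CPM in wild-type.

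Cysteine protease genes of the cathepsin B type fell alongside. The smallest adjusted p of the list was that of cpr-3, at 17.3, 19.7 and 14.4 CPM in *hrde-2* and 57.4, 41 and 87.4 CPM in wild-type (log2 fold change -1.85 with an SE of 0.31, adjusted p = 0.00209). The more abundant cpr-9 was at 1383, 1131 and 1365 CPM in *hrde-2* and 2843, 2293 and 2453 CPM in wild-type, cpr-5 at 377, 349.9 and 394 CPM in *hrde-2* and 801, 657 and 754 CPM in wild-type, and cpr-1 at 756, 627 and 568 CPM in *hrde-2* and 1489, 1700.3 and 1527 CPM in wild-type. The calls of cpr-3, cpr-5 and cpr-9 held in all 14 alternatives. The protease that rose, asp-17, was scarce, at 10.9, 15.2 and 9.09 CPM in *hrde-2* and 1.97, 5.23 and 1.79 CPM in wild-type.

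Summed over the list, protease mRNA was at 18332, 14284 and 15108 CPM in *hrde-2* and 32117, 24269 and 30560.2 CPM in wild-type. Every mutant library lay below every wild-type library, and the *hrde-1* libraries, at 28399, 23953 and 21519 CPM, overlapped the wild-type range. Without 1 library 4 to 10 of the genes were lower, with 4 when *hrde-2* replicate 2 was left out. The neighbours asp-6, asp-12 and asp-5 on chromosome V, from 8267511 to 8274046, were consecutive tested genes and all lower. Of these asp-12 had 154, 144 and 42.2 CPM in *hrde-2* and 433, 393 and 965 CPM in wild-type and was as low in *hrde-1*, at 48.9, 124 and 41.5 CPM, and its fall in *hrde-2* (log2 fold change -2.40, adjusted p = 0.0112) was lost without wild-type replicate 1 or 3 (adjusted p = 0.0742 and 0.0638).

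Genes for antimicrobial proteins were also among those that fell. Of 49 tested lysozyme, saposin-like and other antimicrobial genes, 16 were lower, with a median log2 fold change of -0.62. This is 32.7%, against 4.25% of all genes and 8.13% of those at 100 CPM or more in wild-type. The member called higher, irg-1 (log2 fold change 1.41, adjusted p = 0.0377), lost its call in 8 of 14 alternatives, among them those without any 1 of the *hrde-2* libraries (adjusted p = 0.0731, 0.0967 and 0.115), when 0 members were called higher, whereas 3 were without wild-type replicate 1. Saposin-like proteins, which permeabilize bacterial membranes, made up 10 of the 16. The smallest adjusted p was that of spp-18, at 58.3, 51.5 and 42.5 CPM in *hrde-2*, against 190.0, 130.5 and 161 CPM in wild-type (log2 fold change -1.66 with an SE of 0.22, adjusted p = 0.000556), and it was lower than in *hrde-1* too (adjusted p = 0.00177). The abundant spp-3 was at 281, 259.6 and 281 CPM in *hrde-2* and 689, 511 and 628 CPM in wild-type (log2 fold change -1.15 with an SE of 0.18, adjusted p = 0.00116). With spp-2, spp-4 and spp-5 (names chosen after their values were seen) it forms a cluster on chromosome X from 7314969 to 7320384, whose members had log2 fold changes of -1.58 to -0.78.

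Lysozymes that fell were lys-4, at 424, 332 and 239.9 CPM in *hrde-2* and 815, 716 and 637 CPM in wild-type, and, chosen after their values were seen, lys-7, lys-8, lys-6, lys-10 and the invertebrate-type ilys-5. The mRNA of ilys-5 was at 693, 620.2 and 559 CPM in *hrde-2* and 1646, 1048 and 1047 CPM in wild-type (log2 fold change -1.0 with an SE of 0.20, adjusted p = 0.00735). That of lys-7 stood at 29.6, 38 and 30.7 CPM in *hrde-2* and 219, 100.0 and 117 CPM in *hrde-1* mutants, against 61.5, 82.1 and 71.8 CPM in wild-type, and the mutants differed from each other (log2 difference -2.15, adjusted p = 0.00155). Without 1 library 6 to 12 antimicrobial genes were lower, with 6 when *hrde-2* replicate 2 was left out and 8 without *hrde-2* replicate 1 or 3.

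The vitellogenins are yolk proteins that the adult intestine makes for the oocytes, and 2 of the 6 genes were called lower. All 6 had log2 fold changes below 0, from -0.90 to -0.45 with a median of -0.75. The mRNA of vit-2 was at 14552, 9302 and 10464 CPM in *hrde-2* and 22438, 17632 and 24024 CPM in wild-type (log2 fold change -0.90 with an SE of 0.25, adjusted p = 0.0333), and that of vit-6 at 15857, 10230.0 and 11637 CPM in *hrde-2* and 23668, 17572 and 25492 CPM in wild-type (log2 fold change -0.82 with an SE of 0.23, adjusted p = 0.0377). For both, every mutant library was below every wild-type library. The mRNA of vit-5 was at 6403, 4109 and 4739 CPM in *hrde-2* and 10074, 7438 and 9557 CPM in wild-type and just missed the threshold (adjusted p = 0.0502), and those of vit-3, vit-4 and vit-1 had adjusted p of 0.106, 0.0576 and 0.291.

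The level was lower in *hrde-2* than in *hrde-1* for vit-2, vit-4, vit-5 and vit-6 (adjusted p from 0.0225 to 0.0355). Summed over the 6 genes it was at 43249, 27616 and 31460.4 CPM in *hrde-2*, 92544, 61080.4 and 54863 CPM in *hrde-1* mutants, against 66286, 48383 and 65635 CPM in wild-type. The number called was 0 without *hrde-2* replicate 2 or 3 or wild-type replicate 1 or 3, and 4 without wild-type replicate 2. The vitellogenin genes vit-3 to vit-5 share much of their sequence, as do others of the family, so that values of single genes are uncertain where reads that map to several places were not counted.

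**Figure D4:**
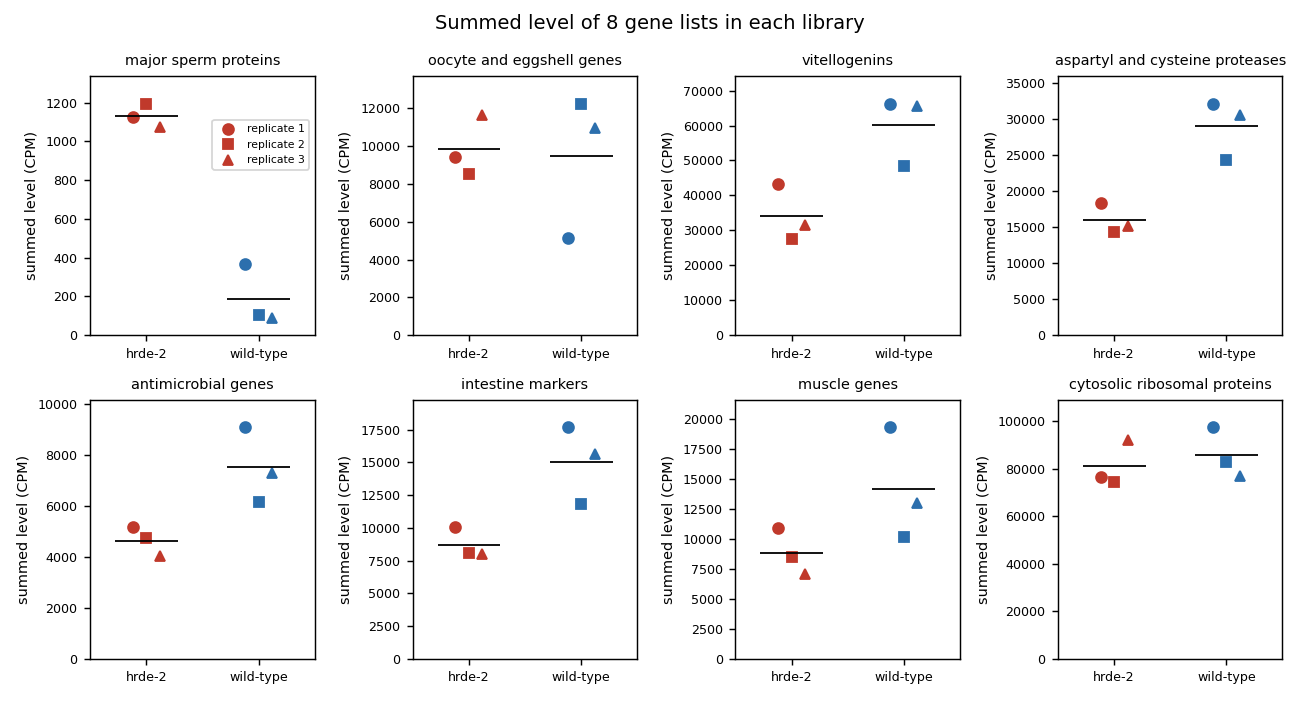
Summed level in CPM of 8 gene lists (1 per panel, axis from 0) in each of the 3 *hrde-2* libraries (left, red) and 3 wild-type libraries (right, blue), with the mean as a line and the replicate number as the marker. The major sperm protein genes are higher in every mutant library, proteases and vitellogenins are lower in every mutant library, and wild-type replicate 1 is the lowest library for oocyte genes and the highest for muscle genes.

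Other mRNAs that fell at least 2-fold and were abundant in wild-type were lec-8, for a galectin, at 229, 175 and 185 CPM in *hrde-2* and 518, 344 and 429 CPM in wild-type, ule-4, a gene named for its expression at the uterine lumen, at 409.7, 339 and 431 CPM in *hrde-2* and 1102, 647 and 633 CPM in wild-type, and D1086.10, at 336, 264 and 306 CPM in *hrde-2* and 959, 466 and 413 CPM in wild-type. For D1086.10, wild-type replicate 1 held more than the other 2 wild-type libraries together, and without it the log2 fold change was -0.46 (adjusted p = 0.0615). The call of lec-8 held in all 14 alternatives.

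Markers of whole tissues moved in part with these genes. Of 19 tested intestine markers, 3 were lower and 0 higher (median log2 fold change -0.43). The share lower was 15.8%, against 4.25% of all genes and 8.13% of those at 100 CPM or more in wild-type. Their summed level was 10055, 8062 and 8006 CPM in *hrde-2* and 17678, 11823 and 15615 CPM in wild-type. The 3 were asp-1, asp-3 and mtl-2, a metallothionein gene chosen after its values were seen, and the first 2 belong to the protease list as well. Without *hrde-2* replicate 2 none of the markers was called lower, and without wild-type replicate 1, 2 were lower and 1 higher. Of 40 muscle genes, 4 were lower (10.0%), among them the troponin C gene pat-10 at 854, 892 and 816 CPM in *hrde-2* and 1783, 1232 and 1292 CPM in wild-type, and the titin gene ttn-1 was higher. The calls of pat-10 and ttn-1 were each lost in 4 of 14 alternatives. Muscle genes called lower numbered 1 without *hrde-2* replicate 1, 0 without *hrde-2* replicate 2 or 3, 2 without wild-type replicate 1 (when 3 were higher), 8 when wild-type replicate 2 was left out and 1 when replicate 3 was. Their summed level was 10952, 8482 and 7065 CPM in *hrde-2* and 19336, 10211 and 12974 CPM in wild-type, so that the groups overlapped and wild-type replicate 1 was highest, and without that library their median log2 fold change was 0.04 instead of -0.25. The part of tissue composition in these falls was not tested. Without wild-type replicate 1 the protease list had a median of -0.50 with 7 genes lower, the antimicrobial list -0.27 with 12 lower, the vitellogenins -0.54 and the intestine markers -0.21.

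Of 31 glutathione S-transferase genes, 4 were lower (12.9%, against 4.25% of all genes) and 0 higher (median -0.30). The gene gst-1 had 69.9, 62.5 and 71.3 CPM in *hrde-2* and 111, 203 and 207 CPM in wild-type, a log2 fold change of -1.36 (its SE was 0.23, adjusted p = 0.00257). Summed over the list, the levels were 493, 494 and 497 CPM in *hrde-2* and 792, 739 and 769 CPM in wild-type, a narrow spread in each genotype with no overlap. Without 1 library 1 to 4 were lower, with 1 when *hrde-2* replicate 2 was left out. Of 79 neuropeptide and insulin genes, 5 were lower (6.33%, against 4.25% of all genes) and 2 higher (2.53%, against 7.57%). The faller nlp-56 was at 2.57, 1.01 and 1.82 CPM in *hrde-2* and 10.1, 6.17 and 6.09 CPM in wild-type. The riser nlp-4 was at 3.0, 3.87 and 2.4 CPM in *hrde-2* and 0.393, 0.429 and 0.179 CPM in wild-type. Without any 1 *hrde-2* library 1 neuropeptide gene was lower, and without wild-type replicate 1, 4 were lower and 4 higher.

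Calls in lists of general cell function were few. They are to be set against 7.57% of all genes higher and 4.25% lower. In the shorter lists, few calls do not set a list apart from all genes. In the germline, 1 of 36 meiotic chromosome genes was higher (2.78%). It was chk-2, for the kinase that coordinates chromosome pairing (log2 fold change 0.97, adjusted p = 0.0425). Of 46 cell cycle and replication genes 1 was lower (2.17%), cdk-7 (-0.82, adjusted p = 0.0235). Of 27 oocyte and eggshell genes 1 was lower (3.7%). It was the eggshell gene perm-2, at 417, 300.3 and 438 CPM in *hrde-2* and 587, 614 and 619.7 CPM in wild-type. The calls of chk-2, cdk-7 and perm-2 were lost in 7, 6 and 9 of 14 alternatives, among them each fit without 1 library other than wild-type replicate 1. Without wild-type replicate 1, 3 meiotic genes were higher (8.33%) and 4 lower (11.1%), and 3 oocyte genes were lower (11.1%). In that fit 1 cell cycle gene was higher (2.13%) and 12 were lower (25.5%), where 14.8% of autosomal genes were higher and 8.94% lower. The summed level of the oocyte genes was 9419, 8554 and 11633 CPM in *hrde-2* and 5161, 12258 and 10968 CPM in wild-type, so that wild-type replicate 1 alone was low. None of 33 proteasome genes, 15 embryo genes, 16 hedgehog-related genes or 38 chemoreceptor genes was called in either direction with edgeR or DESeq2. At an unadjusted p under 0.05, 5 chemoreceptor genes were lower, 2 embryo genes and 1 hedgehog-related gene were higher, and 0 proteasome genes passed. Without wild-type replicate 1 edgeR called 3 chemoreceptor genes higher and 2 lower, 2 hedgehog-related genes higher and 1 embryo gene lower. Of 11 dosage compensation genes 1 was higher (9.09%), sdc-3 (log2 fold change 0.75, adjusted p = 0.0475). Of 103 collagen genes 3 were lower (2.91%), col-135 with the smallest adjusted p (0.0328). Of 69 mitochondrial ribosomal protein genes 1 was lower (1.45%), mrpl-50 (log2 fold change -0.63, adjusted p = 0.0351). Of 70 genes for translation factors and tRNA synthetases 4 were higher (5.71%). The calls of sdc-3 and mrpl-50 were lost in 8 and 9 of 14 alternatives, again among them each fit without 1 library other than wild-type replicate 1. Without *hrde-2* replicate 2 no collagen gene and 2 translation genes were called. Without wild-type replicate 1, 15 collagen (13.9%), 17 translation (24.3%), 3 dosage compensation (27.3%) and 2 mitochondrial ribosomal protein genes (2.9%) were higher. In that fit 1 collagen gene (0.926%) and 2 translation genes (2.86%) were lower. Among the translation genes, ife-5, a germline eIF4E gene, was at 26, 33 and 37.2 CPM in *hrde-2* and 45.9, 52.2 and 68.4 CPM in *hrde-1* mutants, against 3.28, 5.83 and 3.94 CPM in wild-type.

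Large families with many scarce members were called at rates under those of all genes, which were 7.57% higher and 4.25% lower. Of 103 F-box genes 4 were higher (3.88%) and 3 lower (2.91%). The smallest adjusted p in each direction was that of fbxb-97 (log2 fold change 2.02, adjusted p = 0.000976) and fbxa-206 (-0.98, adjusted p = 0.00582). Of 60 MATH and BTB domain genes, bath-13 was higher (2.83), which is 1.67% of them. There bath-39 was 1 of 2 that were lower (-1.51), which is 3.33%. Of 158 nuclear hormone receptor genes, nhr-15 was higher (2.32), which is 0.633% of them, and nhr-112 was 1 of 2 lower (-1.81), which is 1.27%. Cytochrome P450 genes had 1 of 46 higher (cyp-13A8, 3.47) and 1 lower (cyp-35A3, -0.96), each 2.17%. Glucuronosyltransferase genes had 1 of 44 higher (ugt-41, 1.76) and 1 lower (ugt-18), each 2.27%. These counts also moved with single libraries. Without any 1 of the *hrde-2* libraries, 0 MATH and BTB domain, nuclear hormone receptor and P450 genes were lower. Without wild-type replicate 1, 6 F-box genes were higher (5.5%) and 11 lower (10.1%), and 3 MATH and BTB domain genes higher (4.84%) and 4 lower (6.45%). In that fit 4 nuclear hormone receptor genes were higher (2.52%) and 5 lower (3.14%), and 3 P450 genes higher (6.25%) and 4 lower (8.33%). Of the glucuronosyltransferase genes 9 were higher (19.6%) and 2 lower (4.35%), where 14.8% of autosomal genes were higher and 8.94% lower.

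Smaller lists gave few calls, to be set against 7.57% of all genes higher and 4.25% lower. Of 23 tested histone genes 2 were higher (his-48 with the smallest adjusted p, 1.20, adjusted p = 0.0349) and his-37 was lower (-0.76, adjusted p = 0.0306). Of 28 genes for histone H3K9 methylation and heterochromatin, let-418, for a chromatin remodelling ATPase, was 1 of 2 that were higher, at 197, 182 and 233 CPM in *hrde-2* and 86.7, 141 and 127 CPM in wild-type, and cec-1, for a chromodomain protein, was lower, at 23.2, 27.3 and 20.2 CPM in *hrde-2* and 46, 41.2 and 45.3 CPM in wild-type. Heat shock protein genes had 2 of 15 higher (hsp-110, 0.67) and 2 lower (hsp-43, -0.97), Skp1-related genes 2 of 18 lower (skr-4, -1.18), claudin-like genes 2 of 21 higher (clc-10, 2.71) and 2 lower (clc-1, -1.44), moulting genes 1 of 41 higher (nas-11, 0.79), and globins 1 of 7 lower (glb-1, -1.02, overlapped by a gene on the other strand, which was higher in *hrde-1* at 1.39, adjusted p = 0.0156). Without *hrde-2* replicate 2, 0 histone, heat shock, moulting and globin genes were called, and 0 of the heterochromatin genes were higher. Without wild-type replicate 1, 8 moulting (18.6%), 3 heat shock (20.0%) and 3 heterochromatin genes (10.7%) were higher and 3 Skp1-related genes (16.7%) lower. The shares of autosomal genes in that fit were 14.8% higher and 8.94% lower. The male somatic list had 1 member with enough counts to be tested, which was not called (log2 fold change -0.59).

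The calls were spread unevenly over the chromosomes. On chromosome X, 7 of 1625 tested genes were higher (0.431%), against 912 of 10502 on the autosomes (8.68%), and 107 were lower (6.58%), against 409 on the autosomes (3.89%). Among the autosomes the share of higher genes was largest on IV (11.8%) and I (10.8%) and smallest on V (5.62%). It is known that genes expressed in sperm are scarce on chromosome X. The median log2 fold change was -0.31 on chromosome X and -0.06 on the autosomes. Without wild-type replicate 1, 83 of 1688 tested genes of chromosome X were higher (4.92%), against 1599 of 10831 on the autosomes (14.8%). In that fit 147 were lower on X (8.71%), against 968 on the autosomes (8.94%), so that the larger share of lower genes on X was not found without this library, and the medians were -0.06 on X and 0.06 on the autosomes. Without *hrde-2* replicate 2, 3 genes of X were higher (0.181%) and 29 lower (1.75%), against 506 (4.77%) and 79 (0.744%) on the autosomes. Of the risers on X, dhcr-24 (chosen after its values were seen), for a sterol reductase, had 23.9, 32 and 22.6 CPM in *hrde-2* and 5.25, 2.06 and 1.79 CPM in wild-type.

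**Figure D5:**
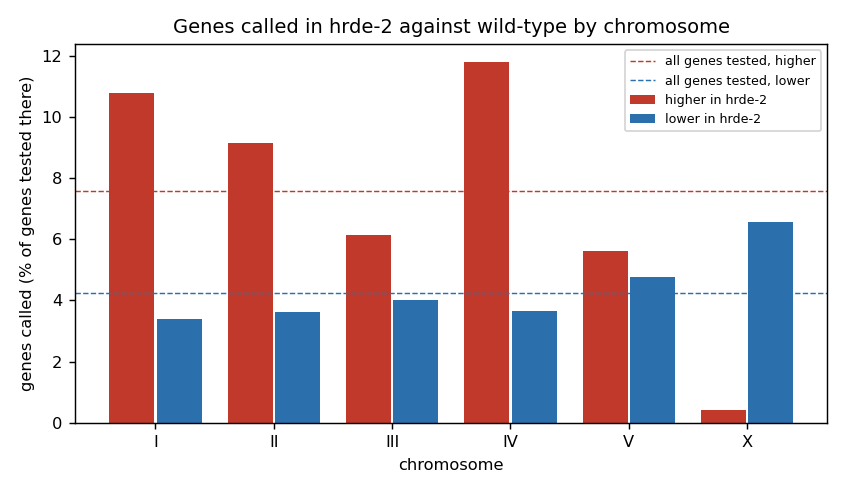
Percent of the genes tested on each chromosome that were higher (red) or lower (blue) in *hrde-2* than in wild-type, with dashed lines at 7.57% and 4.25% for all genes tested. Chromosome X has 0.431% of its genes higher and 6.58% lower.

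One run of falling genes stood at the left end of chromosome X. All 13 tested genes that start in this stretch, from 261 to 197901, were lower in *hrde-2*, 5 of them protein-coding and 8 pseudogenes, with a median log2 fold change of -3.88, or -3.16 with the 2 genes at 0 in all *hrde-2* libraries set at their bound of 3 counts per library. It was the longest run of consecutive tested genes called in 1 direction, among 36 runs of at least 3 genes that were higher and 4 that were lower. Y73B3A.1 (chromosome X, 42728 to 46924) was the most abundant of them, at 1.18, 1.26 and 0.744 CPM in *hrde-2*, against 24.3, 28.8 and 28.5 CPM in wild-type, a log2 fold change of -4.67 (its SE was 0.31, adjusted p = 2.66e-06). Y73B3A.4 (chromosome X, 95959 to 104777) was at 0.321, 0.756 and 0.33 CPM in *hrde-2* and 5.25, 6.43 and 8.06 CPM in wild-type.

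Levels of the others in the run were lower still, and they are named because of their values. T08D2.6 and T08D2.8 each had 1 count in all 3 *hrde-2* libraries together, against 1.31, 5.23 and 4.3 CPM for T08D2.6 and 2.1, 3.0 and 1.97 CPM for T08D2.8 in wild-type, which gives ratios of *hrde-2* over wild-type of 0.00785 (95% interval 0.000197 to 0.0448) and 0.012 (95% interval 0.0003 to 0.0696). Y73B3A.20 had 0 counts in each *hrde-2* library and 1.44, 1.11 and 1.07 CPM in wild-type, at least 4.42-fold lower against a floor of 3 counts in each *hrde-2* library. Summed over the 13 genes, the level was 9.52, 7.90 and 6.44 CPM in *hrde-2*, 19.2, 18.0 and 16.6 CPM in *hrde-1* mutants, against 62.9, 81.7 and 76.5 CPM in wild-type. Both mutants thus lay well below wild-type here, and of the 13 only Y73B3A.1 passed the test of a difference between them (adjusted p = 0.000286).

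The run ended abruptly. The next tested gene, gcp-2.1, starts at 301832 and had 56.9, 70.3 and 56.3 CPM in *hrde-2* and 74.1, 54 and 49.8 CPM in wild-type (log2 fold change 0.04, adjusted p = 0.916), and none of the 7 tested genes that follow the run was called. All 13 genes were called lower also without wild-type replicate 1, and 9 to 12 without any other library, the lowest number without *hrde-2* replicate 2.

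Finally, genes that the study had marked by small RNAs were looked up. Of 965 genes whose small RNAs were found on HRDE-1 in animals lacking *mut-2*, 733 were tested here, of which 67 were higher (9.14%, against 7.57% of all genes) and 39 lower (5.32%, against 4.25%), with a median log2 fold change of -0.19, against -0.10 over all genes. In *hrde-2* the list was thus called at rates close to those of all genes, and most of its members did not pass the threshold. In *hrde-1* against wild-type, 59 of the 733 were higher and 1 was lower. Of all 12141 genes tested, 188 were called in *hrde-1* in either direction (1.55%), and 38 of them were lower (0.313% of the genes tested). The list was thus called higher in *hrde-1* at a rate above that of all genes. The lists that the study made from wild-type and *hrde-2* animals were not looked up. Without *hrde-2* replicate 2 the numbers in *hrde-2* were 42 higher and 6 lower. Without wild-type replicate 1 they were 93 higher (12.3%) and 76 lower (10.0%), against 14.8% and 8.94% of autosomal genes.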

How the data were processed

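Poly(A)-selected RNA of 9 libraries was sequenced from one end, and per the labels and the file headers the authors trimmed reads with Trimmomatic 0.39, aligned them with HISAT2 2.2.1 and counted them over exons with featureCounts of Subread 2.0.1. The deposited values are raw counts per gene of the WS258 annotation, without normalization. Although the library kit keeps strand, counting used no strand option, and reads that matched several places or several genes were not counted. Ribosomal RNA genes held 19.35% to 31.4% of the counts.

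Counts of all 9 libraries were fitted together in edgeR 4.0.16 (R 4.3.3) with TMM scaling, a filter on low counts and the quasi-likelihood test, with Benjamini-Hochberg adjustment over the 12141 genes tested and a threshold of 0.05. Fold changes are *hrde-2* over wild-type, and standard errors come from the fitted model. The biological coefficient of variation was 27%. DESeq2 1.42.0 served as an alternative test, beside other scalings, filters, thresholds and fits without each library. The code was tested on simulated data. The 3 libraries of a genotype were labelled biological replicates, and no 2 agreed within sampling noise. Intervals and floors cover counting error only. Chromosomes, strands and overlaps with other genes follow the file coordinates and a WBcel235 gene annotation.

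The members and gene lists were chosen with earlier results of these data known. Named genes are hrde-1 and hrde-2, the 12 largest rises and 12 largest falls among called protein-coding genes outside the sperm lists with at least 50 counts on average in the higher group and no overlap, the 8 most abundant called genes in each direction that changed at least 2-fold, the member of each list with the smallest adjusted p in each direction, and all vitellogenins. All other genes named were chosen after their values were seen.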

Additional observations from a re-analysis of the deposited data

How the results depend on the processing

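The number of genes higher in *hrde-2* was 919, and the number lower was 516. Leaving out 1 library gave 509 (without *hrde-2* replicate 2) to 1682 (without wild-type replicate 1) higher genes and 108 (without *hrde-2* replicate 2) to 1115 (without wild-type replicate 1) lower genes. At an adjusted p under 0.01 there were 507 higher and 103 lower genes. Scaling by library size alone gave 323 lower genes, and a fit of only the 6 libraries gave 220. Other filters, DESeq2 size factors, the DESeq2 Wald test and removal of ribosomal RNA genes gave 922 to 1247 higher and 393 to 727 lower genes. With the replicate number as a block there were 865 higher and 466 lower genes, and the numbers did not pair the samples, since same-numbered libraries had correlations of 0.0931, -0.253 and 0.199 in their deviations from the group means. Of 137 named genes put through the alternatives 132 were called, and 65 of these were called in all 14 alternatives. Some genes that the text names, such as clec-175, clec-50 and lys-6, were not among the 137. Leaving out 1 library gave vit-1, not called in any fit, log2 fold changes of -0.63 (without *hrde-2* replicate 1) to 0.00017 (without wild-type replicate 1), where all libraries gave -0.45. The number of falls called thus depended on the libraries used. Some moderate falls in well expressed genes, such as cpr-5, cpr-9, spp-3 and lec-8, were called in all 14 alternatives, and others were not. Moderate rises were lost too, such as csr-1 and sdc-3 in 8 of 14 alternatives each. Only 3 libraries per genotype limit what can be called.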
